A study of Mus musculus with 8 samples.

Results

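The comparison set 6 arrays of ligated mouse hearts against 2 arrays of untreated hearts, which together are all 8 arrays of the series. The members were chosen by group: C57BL/6 and MRL/MpJ left ventricles at 3, 30 and 60 days after the left anterior descending (LAD) coronary artery was tied off, each set against the untreated left ventricle of its own strain. C57BL/6 is a common inbred strain, and MRL/MpJ is an inbred strain known for closing ear-punch wounds. All mice were males of 2 to 4 months. The untreated hearts had no sham operation, so the effect of chest surgery and that of the infarct cannot be told apart. Each strain and time point had 1 array of total RNA, the labels do not state how many animals it holds, and no value has a replicate within its own group.

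Tying this artery cuts off blood to part of the left ventricle, and the heart muscle cells there die within hours. The dead muscle is cleared by leukocytes and replaced by a collagen scar laid down by activated fibroblasts, while the surviving muscle remodels, takes up genes of the fetal heart and uses less fatty acid. In the mouse the scar is largely formed within weeks, so the days sampled here run from the inflammatory phase to the mature scar.

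Array signals are on the linear scale of the Affymetrix MAS5 algorithm. A change is the difference between log2(signal + 28.6) on a ligated array and on the untreated array of its strain, so that each gene has 6 changes and a change of 1 is 2-fold on this scale. The offset of 28.6 compresses the changes of dim genes. The 3 changes of a strain share 1 untreated array, whereas the strains share none. Of 12393 genes on the array, 8208 were kept because their signal was 121 or more (the median over all values) on at least 2 of the 8 arrays. Across these genes the C57BL/6 day 30 array stood apart, with a correlation of 0.844 to 0.877 with the other 7 arrays against 0.884 to 0.948 among those. The summed signal of 9 cardiomyocyte markers, all bright on every array, was 317829 on that array and 143420 to 222540 on the others. The median change over all 8208 genes lay between -0.07 and 0.06 on the 6 ligated arrays.

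Genes that rose in every ligated heart included Sfrp2, Postn, Col1a2, Fn1, Timp1 and Vim of the matrix and its cells and Serpina3n, Lgals3 and Serping1 of inflammation. In limma with strain as covariate, 24 of 8208 genes (0.292%) rose in the ligated hearts at an adjusted p under 0.05, and 0 (0%) fell. Before adjustment, 501 genes were higher and 333 lower with a p under 0.05. The adjusted p of the 24 ran from 0.0145 for Kcne4, an accessory subunit of voltage-gated potassium channels, to 0.0485 for Aebp1, a collagen-binding secreted protein. All 24 were higher on each of the 6 ligated arrays. By direction alone, 841 genes (10.2%) were higher on all 6 ligated arrays than on the untreated array of their strain and 938 (11.4%) were lower. For 550 genes (6.7%) every ligated signal lay above both untreated signals, and for 583 (7.1%) below both. A shift of at least 2-fold on all 6 was far rarer, with 33 genes higher (0.402%) and 2 lower (0.0244%). Of the 33, 22 were among the 24 that passed the test, which used the same arrays.

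The count of 24 rested on few arrays and on the filter. With no filter on dim genes 1 of the 24, Kcne4, passed among 12393 genes, and the count was 52 with a larger offset of 84.8, 56 with a filter on the mean signal and 91 with an intensity trend in the variance. It was 0 without the C57BL/6 untreated array, the MRL/MpJ untreated array, the C57BL/6 day 60 array or the MRL/MpJ day 60 array, 14 without C57BL/6 day 30, 13 without MRL/MpJ day 30, and 50 without C57BL/6 day 3. Of the 33 genes, 19 reached the signal limit on ligated arrays alone, and so did 13 of the 24. Such a gene entered the test only because it was brighter after ligation, so its p is a description and no support. Among those that passed these were Cd52, Clec2d, Dkk3, Dnm1, Epha2, Il18bp, Kcne4, Lgals3, Pms2, Rab3il1, Serpina3n, Sfrp2 and Sntb2. Among the rest of the 33 they were Anpep, Comp, Ctsk, Ecrg4, Plagl1 and Tnc. Outside the 33, genes named below with the same limit include Thbs4, Mfap4, Tgfb2, Il18, Ccl2, Adipoq, Jchain, Plvap, Fzd7 and Ms4a6d. The list counts below and the shares over all genes include such genes.

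**Figure D1:**
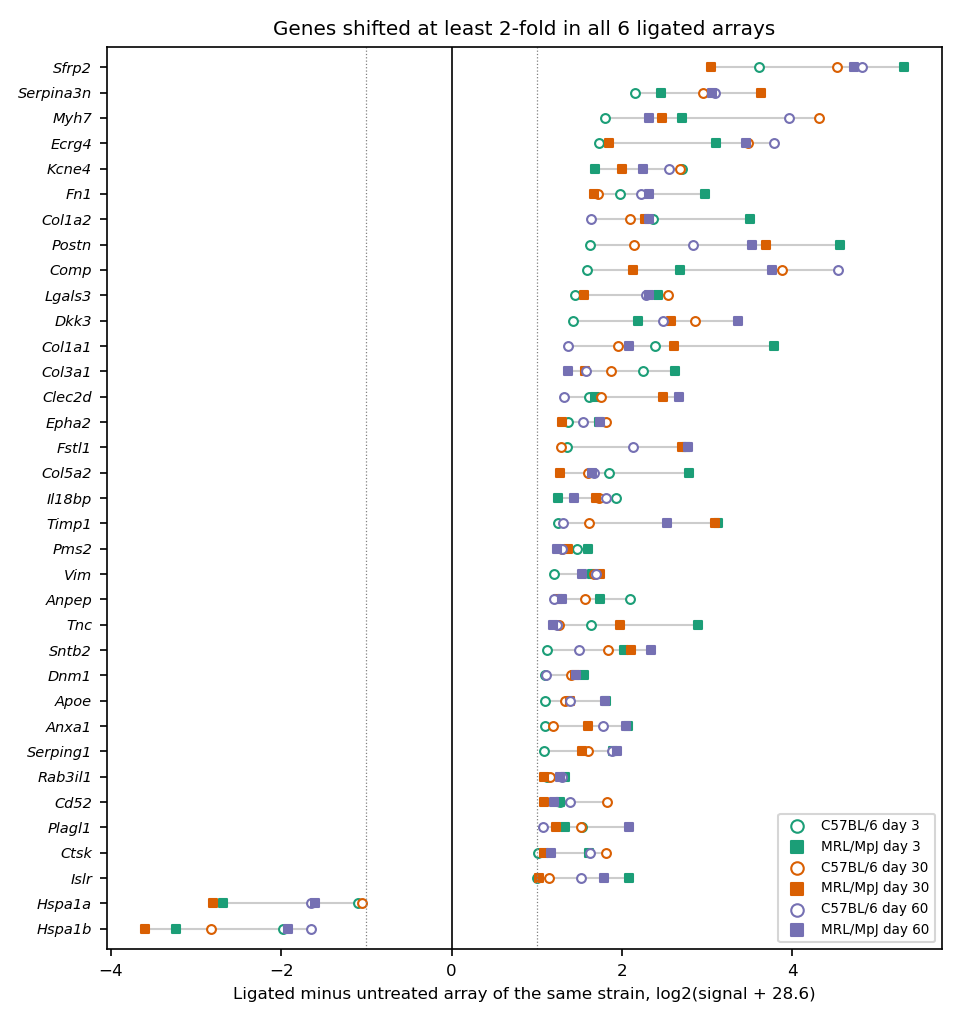
The 35 genes shifted at least 2-fold on all 6 ligated arrays. The x axis is the change in log2(signal + 28.6) against the untreated array of the same strain, open circles are C57BL/6, filled squares are MRL/MpJ, colours are days, and dotted lines mark 2-fold. Sfrp2 has changes from 3.04 to 5.31, and only Hspa1a and Hspa1b lie to the left of 0.

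The strains share no array, but the signal filter and each gene's probe set were set over the arrays of both strains. Of the 33 genes 2-fold higher on all 6 arrays, 19 passed the filter through ligated arrays alone. The counts that follow are therefore a description. In C57BL/6, 97 genes were at least 2-fold higher on all 3 ligated arrays, and in MRL/MpJ 128 were. The 33 common genes are 34.0% of the C57BL/6 genes and 25.8% of the MRL/MpJ genes, where 1.56% of all genes were 2-fold higher on all 3 MRL/MpJ arrays and 1.18% on all 3 C57BL/6 arrays. Of the 97 C57BL/6 genes, 81 (83.5%) were higher by any amount on all 3 MRL/MpJ arrays, against 23.9% of all genes. At least 2-fold lower on all 3 arrays were 12 genes in C57BL/6 and 15 in MRL/MpJ. The 2 common genes are 16.7% and 13.3% of these, where 0.183% of all genes were 2-fold lower on all 3 MRL/MpJ arrays and 0.146% on all 3 C57BL/6 arrays. By any amount, 6 of the 12 (50%) were lower on all 3 MRL/MpJ arrays against 28% of all genes, and 9 of the 15 (60%) on all 3 C57BL/6 arrays against 24.1%. No gene was 2-fold higher on all 3 arrays of one strain and 2-fold lower on all 3 of the other.

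**Figure D2:**
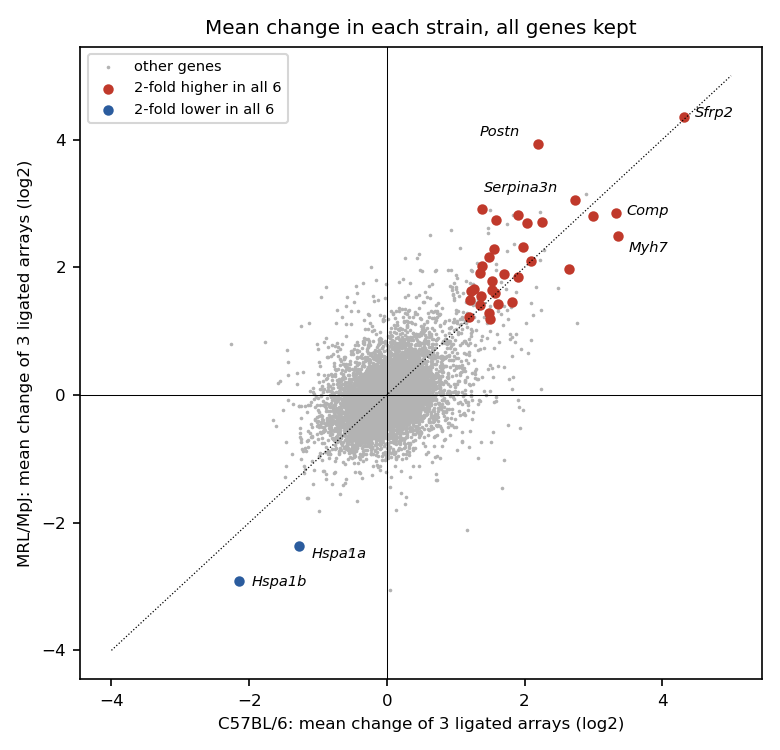
Mean change of the 3 ligated arrays in C57BL/6 (x axis, log2) against that in MRL/MpJ (y axis, log2) for 8208 genes; the dotted line marks equal change. Red points are the 33 genes at least 2-fold higher on all 6 arrays, blue points the 2 at least 2-fold lower, and Postn lies above the line with a larger change in MRL/MpJ.

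The largest persistent rise was that of Sfrp2, a secreted frizzled-related protein that binds Wnt ligands. Its signal was 46.8 in the untreated C57BL/6 heart and 51.3 in the MRL/MpJ one. After ligation it was 894, 1708 and 2102 on days 3, 30 and 60 in C57BL/6, and 3143, 629.7 and 2085 in MRL/MpJ. Every ligated heart thus lay over 10-fold above both untreated hearts in signal. The mean change was 4.34 (SE 0.52, 6 arrays against 2), with a limma adjusted p of 0.0239. Dkk3, a secreted protein of the Dickkopf family that is also listed among atrial genes, rose by 2.48 (SE 0.40, adjusted p = 0.0436 in limma). Its signal was 53.7 and 60.9 untreated, with 192 on day 3, 568 on day 30 and 429.8 on day 60 in C57BL/6, and 379 on day 3, 504 on day 30 and 894 on day 60 in MRL/MpJ. The groups did not overlap. Frzb, another secreted frizzled-related protein, was higher on all 6 arrays (mean change 1.18) without passing (limma adjusted p = 0.209). List counts here and below are over members among the 8208 genes, of which 10.2% were higher and 11.4% lower on all 6 arrays. Of 10 genes on the list of secreted Wnt modulators, 5 were higher on all 6 arrays and 0 lower, with a median change of 0.45. Those higher include Fzd7 (mean change 0.62), which encodes a membrane receptor for Wnt and not a secreted protein.

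Fibrillar collagens carry the tensile strength of a scar. Col1a2, the alpha-2 chain of collagen I, had a signal of 936 and 889.7 in the untreated C57BL/6 and MRL/MpJ hearts. It reached 4937, 4080 and 2974 on days 3, 30 and 60 in C57BL/6 and 10357, 4404 and 4542 in MRL/MpJ. All ligated hearts lay above both untreated hearts, with the highest value on day 3 in both strains. The mean change was 2.36 (SE 0.35, limma adjusted p = 0.0335), and a second probe set gave 2.85. Col1a1, its partner chain, ranged from 1713 to 7072 on the ligated arrays against 486 and 646 untreated (mean change 2.37, limma adjusted p = 0.0637). Col3a1, the collagen of early and compliant scar tissue, ranged from 5608 to 16636 against 1858 and 2677 (mean change 1.87, limma adjusted p = 0.0547). Col5a2, a chain that regulates fibril diameter, had a mean change of 1.80 (limma adjusted p = 0.0637). These 3 genes were at least 2-fold higher on all 6 arrays but did not pass the test. Of 10 fibrillar and fibril-associated collagens, 8 were higher on all 6 arrays and 1 passed; the median change of the list was 1.32, against -0.03 over all genes.

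Matricellular proteins, which are secreted into the matrix during repair and signal to cells rather than bear load, had the highest median of the process lists at 1.45, with 13 of 19 members higher on all 6 arrays and 3 past the test. Postn, periostin, made by activated cardiac fibroblasts, had an untreated signal of 519 in C57BL/6 and 259 in MRL/MpJ. It was 1659, 2397 and 3877 on days 3, 30 and 60 in C57BL/6, increasing with time, and 6776, 3694 and 3285 in MRL/MpJ, decreasing with time. Its mean change was 3.06 (SE 0.45, limma adjusted p = 0.0316). Fn1, fibronectin, was 558 and 442 untreated and ranged from 1466 on MRL/MpJ day 30 to 3679 on MRL/MpJ day 3 (mean change 2.15, SE 0.32, limma adjusted p = 0.0316). Fstl1, a secreted follistatin-like glycoprotein, was 388 and 426 untreated; in MRL/MpJ it was 3032, 2932 and 3070 on days 3, 30 and 60, and in C57BL/6 it was 1033, 988 and 1786. It rose by 2.16 (SE 0.30, limma adjusted p = 0.0316). For each of these 3 genes every ligated array lay above both untreated ones, as for 6.7% of all genes.

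Comp, a thrombospondin family member that binds collagen and is best known from cartilage and tendon, had the second largest mean change among the 33 genes, 3.09 (SE 0.68), yet did not pass (limma adjusted p = 0.112). Its signal was 94.3 and 109.7 untreated. In C57BL/6 it was 342, 1774 and 2815 on days 3, 30 and 60, and in MRL/MpJ 857, 576 and 1846. Both strains had their highest value on day 60. Thbs4, another thrombospondin, was higher on all 6 arrays with a mean change of 2.54 (limma adjusted p = 0.173). Tnc, tenascin C, a matricellular protein of early wounds, was 26.2 on both untreated arrays and 96.9 to 379 after ligation (mean change 1.70, limma adjusted p = 0.123).

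Small leucine-rich proteoglycans, which coat collagen fibrils, were all higher on all 6 arrays among the 7 that passed the filter on dim genes; 9 had a probe set. Fmod, fibromodulin, had a mean change of 2.00 (limma adjusted p = 0.131), Bgn, biglycan, 1.33 (0.212), Prelp 1.25 (0.216) and Lum, lumican, 1.23 (0.138), and none passed. Of 19 genes of elastic fibres and collagen cross-linking, 12 were higher on all 6 arrays with a list median of 0.76. Mfap4, a microfibril protein, had a mean change of 3.02, and its changes ran from 0.77 to 4.60 (limma adjusted p = 0.274). Eln, elastin, was 2208 and 1943 on day 3 in C57BL/6 and MRL/MpJ and 1035 and 625 on day 60, against 324 and 292 untreated. Lox, the enzyme that cross-links collagen and elastin, had a mean change of 1.59 (limma adjusted p = 0.104). Of 19 basement membrane genes and other collagens, 7 were higher on all 6 arrays, led by the collagen VI genes Col6a2 (1.26) and Col6a1 (1.20), and the list median was 0.33.

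On the list of matrix proteases and inhibitors, Timp1, an inhibitor of matrix metalloproteinases, was the only gene that passed. It was 130.8 and 75.4 untreated, 349, 459.8 and 365 on days 3, 30 and 60 in C57BL/6, and 882, 855 and 572 in MRL/MpJ. The mean change was 2.15 (SE 0.33, limma adjusted p = 0.0356). Without the untreated MRL/MpJ array it was 1.39. All 6 ligated hearts lay above both untreated hearts, and the change was larger in MRL/MpJ by 1.53 (unadjusted p = 0.0119 in limma, adjusted p = 1). Mmp2, a gelatinase, and Ctsk, cathepsin K, a collagen-degrading protease, had mean changes of 1.46 (limma adjusted p = 0.0547) and 1.39 (0.0625). Of 22 genes on this list, 13 were higher on all 6 arrays and 1 lower, Timp4, with a mean change of -0.50 (limma adjusted p = 0.742).

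The intermediate filament gene Vim, vimentin, expressed by fibroblasts, leukocytes and endothelial cells, passed as well. It was 2164 and 2810 untreated, 5037, 6974 and 7062 on days 3, 30 and 60 in C57BL/6, and 8887, 9494 and 8157 in MRL/MpJ. Its changes were close together on the 6 arrays, from 1.21 to 1.75, with a mean of 1.58 (SE 0.20, limma adjusted p = 0.028). Kcne4 was 13.6 and 58.6 untreated and 218.1 to 385 after ligation, a mean change of 2.31 (SE 0.23, limma adjusted p = 0.0145). No ligated array overlapped an untreated one, and both untreated signals lay under the filter limit of 121. Of the 50 genes followed through 17 alternative analyses it passed most often, in 13.

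**Figure D3:**
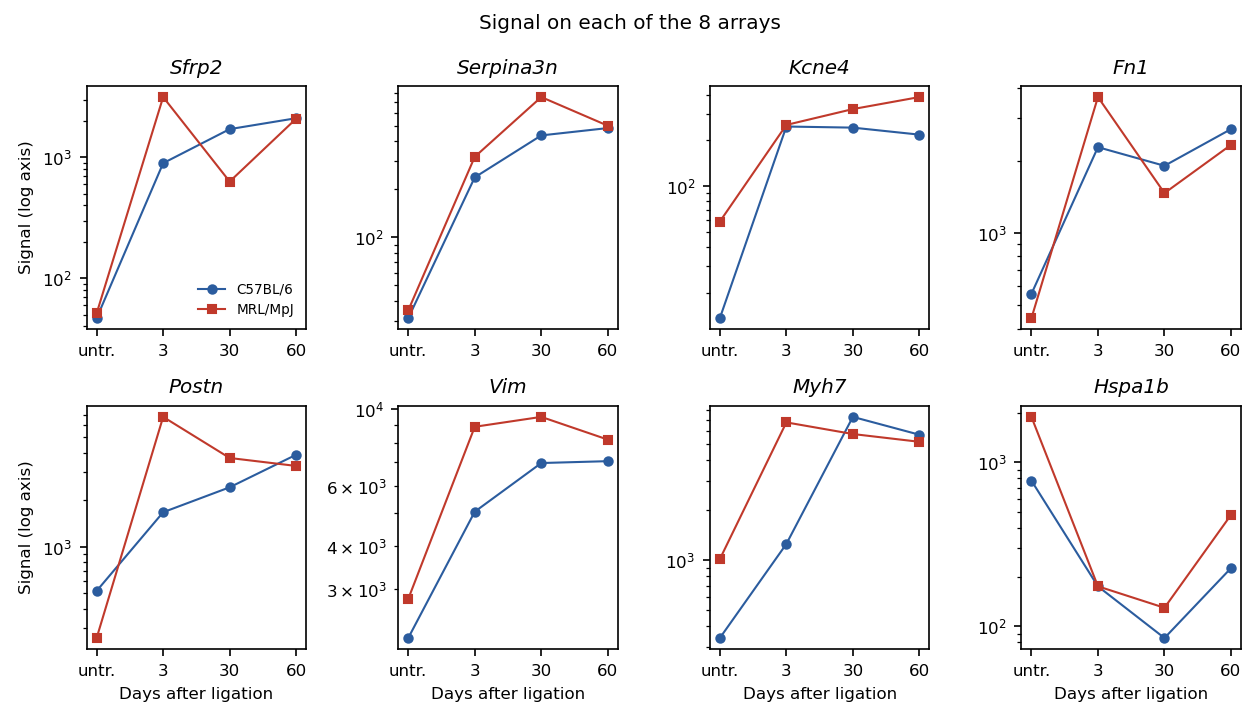
Signal on each of the 8 arrays (log axis) against time (untreated, days 3, 30 and 60) for 8 genes, with circles for C57BL/6, squares for MRL/MpJ and 1 array per point. For Sfrp2, Serpina3n, Kcne4, Fn1, Postn and Vim every ligated point lies above both untreated points, as for Myh7, whose lowest ligated signal is 1248 against 1011 in untreated MRL/MpJ, and for Hspa1b every ligated point lies below both.

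Serpina3n, an acute phase serine protease inhibitor, was 31.1 and 34.8 untreated. It was 237, 434 and 482 on days 3, 30 and 60 in C57BL/6 and 319, 755 and 499 in MRL/MpJ, all far above the untreated hearts. The mean change was 2.89 (SE 0.34, limma adjusted p = 0.0239). Serping1, the inhibitor of complement C1, rose by 1.66 (0.0316), with 903 and 719.8 untreated and 1951 to 3406 after ligation. Il18bp, which binds and neutralises interleukin 18, was 14.0 and 19.0 untreated and 84.4 to 134.2 after ligation, a mean change of 1.64 (0.0239). Of 18 complement, coagulation and acute phase genes, 7 were higher on all 6 arrays and 1 lower, and 2 passed.

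Lgals3, galectin-3, a lectin abundant in macrophages, was 66.8 and 64.0 untreated. It was 232, 525 and 436 on days 3, 30 and 60 in C57BL/6 and 468, 243 and 432 in MRL/MpJ (mean change 2.09, SE 0.32, limma adjusted p = 0.0356). Cd52, a leukocyte surface glycoprotein, rose by 1.34 (0.0368), Apoe, apolipoprotein E, by 1.47 (0.0316), and Anxa1, annexin A1, an inhibitor of leukocyte recruitment, by 1.63 (0.0368). For these 4 genes no ligated array overlapped an untreated one. Clec2d, a C-type lectin that engages a receptor on natural killer cells, rose by 1.92 (0.0356) from 38.9 and 11.2 untreated to 99.5 to 225. Chemokines and cytokines were less uniform, with 4 of 16 higher on all 6 arrays, Ccl8 (mean change 1.44), Ccl6 (0.94), Il18 (0.85) and Ccl2 (0.79), and 0 past the test.

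Marker sums moved with these groups. The summed signal of 14 fibroblast markers was 17358 to 18602 in the untreated hearts and 33539 to 56440 in the ligated hearts. That of 27 macrophage and monocyte markers was 6255 to 9350 against 12773 to 17272, and of the 24 of them kept, 24 had a mean change above 0 and 17 were higher on all 6 arrays. The fibroblast list shares genes with the matrix lists (Col1a1, Col1a2, Lum, Mfap5), and 12 of its 14 members were higher on all 6. Endothelial marker sums were 14620 to 14864 untreated and 13023 to 16899 ligated, of which Fabp4, also an adipocyte marker, made up 4258 to 8033. Of 15 endothelial markers, 4 (26.7%) were lower on all 6 arrays and 2 higher, against 11.4% and 10.2% of all genes. Sums of T cell markers were 569 to 576 untreated and 592 to 992 ligated, with 6 of 10 measured markers under a signal of 121 on every array. Ligated sums likewise all lay above both untreated sums for B cell and plasma cell, Schwann and neural, and atrial markers. The same held for epicardium and mesothelium and for cartilage and bone. Sums of the remaining marker lists overlapped between the groups. The part of cell numbers in the results was not tested, and in whole-tissue RNA more cells of a type and more RNA per cell cannot be told apart.

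Several genes that passed belong to neither the matrix nor the immune lists. Epha2, a receptor tyrosine kinase for ephrins, rose by 1.58 (limma adjusted p = 0.0305), with 33.8 and 21.5 untreated and 94.4 to 190.4 after ligation. Sntb2, a syntrophin of the dystrophin complex, rose by 1.82 (0.0305), Pms2, a DNA mismatch repair gene, by 1.38 (0.0305), Dnm1, dynamin 1, a GTPase of endocytosis, by 1.35 (0.0316), Rab3il1, an exchange factor for Rab GTPases, by 1.21 (0.0316) and Ptgis, prostacyclin synthase, by 1.48 (0.0479). Apart from Ptgis, at 414 and 273, their untreated signals were at most 83.9. For Rab3il1 the 4 other probe sets gave mean changes of -1.0 to -0.19 at signals up to 51.3, opposite to the probe set used. For Plagl1, an imprinted zinc finger gene (mean change 1.46, limma adjusted p = 0.0578), the other gave -0.08. The other Dnm1 probe set gave 0.23 at signals up to 108.5 and was not higher on all 6 arrays. The size of a dim gene's change depends on the offset, as for Il18bp, with 1.64 here, 2.70 with an offset of 1 and 0.96 with one of 84.8. Ecrg4, the precursor of a secreted peptide, was 8.2 and 28.0 untreated and 93.1 to 595 after ligation (mean change 2.90, limma adjusted p = 0.0637). Anpep, aminopeptidase N, at 20 and 17.6 untreated and 81.1 to 178.6 after ligation (mean change 1.52, limma adjusted p = 0.0547), and Islr, a secreted leucine-rich repeat protein of mesenchymal cells (mean change 1.43, limma adjusted p = 0.0861), were at least 2-fold higher on all 6 arrays too.

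Values ran on across the 2-fold limit. Just inside it, by the change nearest 0, were Islr (1.0), Ctsk (1.01) and Plagl1 (1.07), and just outside Aebp1 (0.98), Adipoq (0.98) and Ccn2 (0.96), the connective tissue growth factor gene. On the lower side Hspa1a (-1.06) was inside and Coq10a (-0.89), Hsph1 (-0.87) and Atg10 (-0.72) were outside.

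Of the fetal and stress genes of heart muscle, Myh7, the beta myosin heavy chain that fetal and failing mouse ventricles express, had the third largest change nearest 0 of all genes. It was 339 in the untreated C57BL/6 heart and 1011 in the MRL/MpJ one. In C57BL/6 it was 1248, 7273 and 5680 on days 3, 30 and 60, and in MRL/MpJ 6739, 5735 and 5148. The C57BL/6 day 3 heart, with a change of 1.80, lay closest to the untreated hearts, and the mean change was 2.93 (SE 0.56, limma adjusted p = 0.0637). Nppa, atrial natriuretic peptide, was 3455 and 5781 untreated and 6605 to 41056 after ligation, a mean change of 2.28 (limma adjusted p = 0.126). Of 24 genes on the fetal and stress list, 6 were higher on all 6 arrays. Among these were Lgals3 and Tgfb2, which are not particular to heart muscle, and Lgals3 alone on the list passed the test. Another 2 were lower, Fhl2 with a mean change of -0.64 and Rcan1 with -0.59. The counts are 25% and 8.33% of the list, against 10.2% and 11.4% of all genes. The summed signal of 11 atrial myocyte markers, Nppa and Dkk3 among them, was 6176 to 9705 untreated and 11508 to 54526 ligated, and most of it was Nppa. Only 3 of the 11 were higher on all 6 arrays, Nppa, Dkk3 and Pam, and the list median was -0.21 on C57BL/6 day 60 and -0.08 on MRL/MpJ day 3. The atrial genes Sln and Myl7 were 6.7 and 11.9 on the C57BL/6 day 60 array, against 251 and 442 on the untreated one. They were 6.1 and 97.6 on the MRL/MpJ day 3 array, against 235 and 532. On both day 30 arrays and on MRL/MpJ day 60 they were 2932 to 3899. Whether atrial tissue was sampled with some ventricles was not tested. Of 20 ventricular sarcomere genes, 1 was higher on all 6 arrays, the light chain gene Myl2 (mean change 0.56). Lower on all 6 were 2, Ldb3 (-0.46) and Mybpc3 (-0.18). These shares, 5% and 10%, were not above the 10.2% and 11.4% of all genes.

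The lower side of the response was led by heat shock genes. Their chaperones bind unfolded proteins, and heat shock factor 1 switches the genes on under heat and other protein stress through repeats of a GAA element in the promoter. Hspa1b and Hspa1a, which encode the inducible Hsp70 chaperone, were the only genes at least 2-fold lower on all 6 arrays. Hspa1b was 773 in the untreated C57BL/6 heart and 1894 in the MRL/MpJ one, against 175.2, 84.8 and 226 on days 3, 30 and 60 in C57BL/6 and 175.3, 129.7 and 478 in MRL/MpJ. Hspa1a was 323 and 770.5 untreated, against 135.2, 140.4 and 83.0 in C57BL/6 and 96.3, 86.1 and 234 in MRL/MpJ. Every ligated heart lay below both untreated hearts, as for 7.1% of all genes, and the untreated MRL/MpJ heart was the highest for both genes. The mean changes were -2.54 (SE 0.45) for Hspa1b and -1.82 (SE 0.37) for Hspa1a, with limma adjusted p of 0.0554 and 0.0849, so neither passed.

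The coding sequences of these genes are nearly the same, so that their probe sets may share signal and their values are uncertain as separate measurements; the Hspa1b probe set used carries the suffix of probes that also match other transcripts. Of 26 heat shock chaperone genes, 11 (42.3%) were lower on all 6 arrays, against 11.4% of all genes. On this list 1 gene was higher on all 6 and 0 passed, and the list median was -0.34. The co-chaperone Hsph1 was 730.2 and 806 untreated and 236 to 428 after ligation (mean change -1.17, limma adjusted p = 0.0778). Fkbp4, an immunophilin that works with Hsp90, had a mean change of -1.10 (limma adjusted p = 0.251) and Dnaja1, an Hsp40 partner of Hsp70, -0.78 (0.138). Dnajb1, Bag3, Hspe1, Stip1, Hspd1 and Hspb8 were lower on all 6 arrays as well. Hspa2 was the exception, higher on all 6 arrays with a mean change of 1.02. The surgery, the dissection and the time to freezing of each heart are not in the labels, and their part in these values was not tested.

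**Figure D4:**
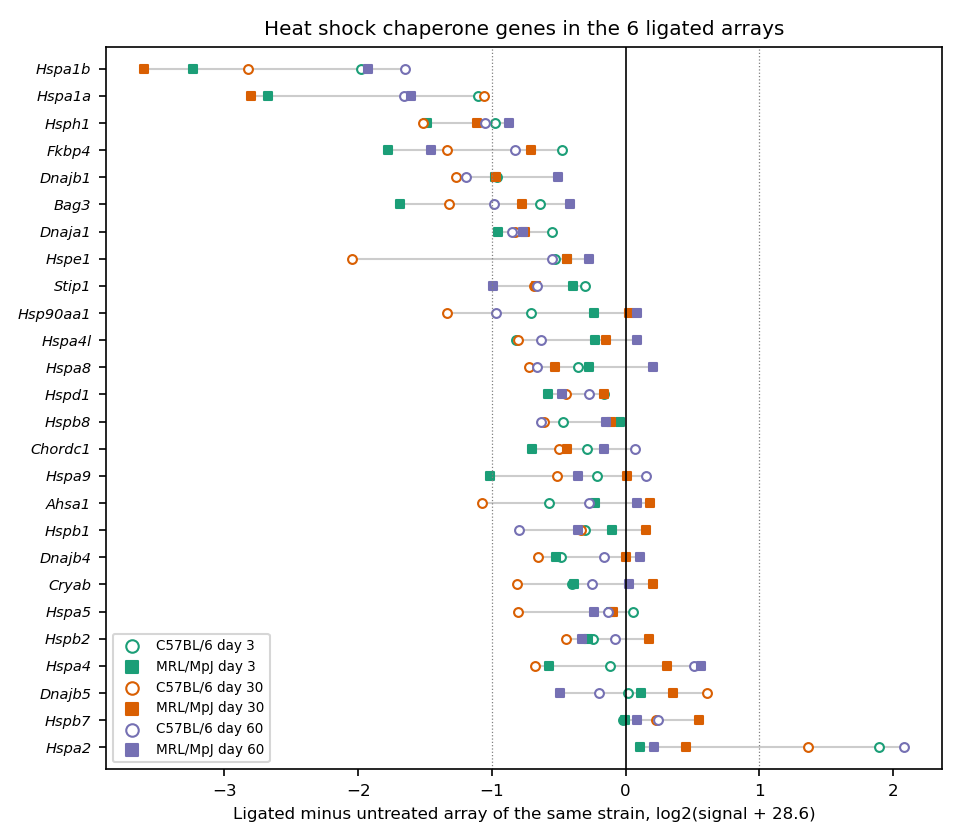
Changes in log2(signal + 28.6) for the 26 heat shock chaperone genes, ordered by mean change, with open circles for C57BL/6, filled squares for MRL/MpJ and colours for days; dotted lines mark 2-fold. Hspa1b, Hspa1a and Hsph1 lie to the left of 0 on all 6 arrays, as do 8 others, and Hspa2 lies to the right.

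Promoter sequences were read because genes of this list moved together. The motif searched was GAANNTTC, 1 inverted pair of the GAA units that heat shock factor binds, which reads the same on both strands, in RefSeq windows from 250 bases before to 50 bases after each gene start (GRCm38.p6). It was present for 9 of the 11 chaperone genes that were lower on all 6 arrays (62.5% of 16 windows) and for 2 of the 10 other chaperone genes with a window (15.4% of 13 windows). It was found in 5.76% of the 8577 windows of all genes kept and in 7.86% of all 32851 windows. A match is a run of letters, not a measured binding site. The 250 bases before the start are shown for 4 of these genes, the Hsp70 pair because they had the largest changes and Dnaja1 and Fkbp4 as other members with 1 match, with the motif in capitals. The Hspa1a window is chr17:34972157-34972406 on the minus strand, Hspa1b chr17:34959239-34959488 minus, Dnaja1 chr4:40722218-40722467 plus and Fkbp4 chr6:128438657-128438906 minus.
Hspa1a: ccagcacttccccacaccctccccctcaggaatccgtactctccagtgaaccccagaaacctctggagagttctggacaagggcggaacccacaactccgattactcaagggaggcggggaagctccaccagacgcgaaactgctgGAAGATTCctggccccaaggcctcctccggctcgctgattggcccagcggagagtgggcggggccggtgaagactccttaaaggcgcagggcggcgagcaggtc
Hspa1b: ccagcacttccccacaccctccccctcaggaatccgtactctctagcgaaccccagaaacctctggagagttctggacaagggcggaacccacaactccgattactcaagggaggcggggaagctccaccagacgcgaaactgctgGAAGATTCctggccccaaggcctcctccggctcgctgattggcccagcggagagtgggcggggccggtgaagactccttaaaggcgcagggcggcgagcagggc
Dnaja1: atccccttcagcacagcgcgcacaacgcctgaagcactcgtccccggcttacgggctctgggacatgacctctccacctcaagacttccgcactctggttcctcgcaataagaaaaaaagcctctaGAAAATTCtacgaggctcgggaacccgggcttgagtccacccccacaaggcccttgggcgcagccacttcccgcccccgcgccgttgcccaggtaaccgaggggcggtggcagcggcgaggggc
Fkbp4: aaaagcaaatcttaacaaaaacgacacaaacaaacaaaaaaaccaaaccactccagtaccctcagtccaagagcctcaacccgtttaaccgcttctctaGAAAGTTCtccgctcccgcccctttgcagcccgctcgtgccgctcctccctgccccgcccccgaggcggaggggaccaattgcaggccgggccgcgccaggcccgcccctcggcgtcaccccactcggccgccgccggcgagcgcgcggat

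The Hspa1a and Hspa1b windows were identical at 247 of 250 positions (98.8%), with the motif 104 bases before the start in both. The motif began 124 bases before the start of Dnaja1 and 151 bases before that of Fkbp4. For the genes at least 2-fold higher on all 6 arrays, 25 of 33 had a window. The TATAAA box was in 20.6% of their 34 windows, against 7.96% of the windows of genes kept and 13.6% of all windows. The AP-1 motif TGANTCA was in 0 of the 34, against 5.64% of the windows of genes kept. GAANNTTC was in 4 of the 34 (11.8%), against 5.76%, so it was not found in lowered genes alone. The other motifs searched, CACGTG and TGACGTCA, were in 11.8% and 2.94% of the 34, against 9.77% and 2.82%.

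Genes of mitochondrial energy production were lower in many members and by small amounts. Of 32 genes of fatty acid uptake and oxidation, 16 were lower on all 6 arrays and 0 higher, with a median change of -0.46. Cpt2, the inner membrane carnitine palmitoyltransferase, was 1964 and 1725 untreated and 629 to 1385 after ligation (mean change -0.90, limma adjusted p = 0.219). Of 22 genes of the tricarboxylic acid cycle and pyruvate oxidation, 13 were lower on all 6 arrays, 0 had a mean change above 0, and the median was -0.46. Suclg2, a succinyl-CoA ligase subunit, was 847 and 820.1 untreated and 436 to 559 after ligation (mean change -0.70, limma adjusted p = 0.216). Of 64 respiratory chain and ATP synthase genes, 19 were lower on all 6 and 0 higher, with a median of -0.25 that was -0.52 and -0.51 on MRL/MpJ days 3 and 60 but -0.03 and 0.02 on C57BL/6 days 3 and 60. Over all genes 11.4% were lower on all 6 arrays, and 0 of the members of these 3 lists passed the test.

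The medians of the fatty acid list also differed between arrays. They were -0.75 and -0.74 on MRL/MpJ days 3 and 60 and -0.60 on C57BL/6 day 30, but -0.10 on C57BL/6 day 3 and -0.14 on MRL/MpJ day 30. Without the C57BL/6 day 30 array the median was -0.39 for fatty acid genes, -0.38 for tricarboxylic acid cycle genes, -0.32 for heat shock genes, 1.44 for fibrillar collagens and 1.35 for matricellular proteins, so that none of these signs rested on it. Coq10a and Coq9, which serve coenzyme Q in the same chain, were among the lowest of all genes by the change nearest 0. Coq10a was 1877 and 1439 untreated and 338 to 981 after ligation (mean change -1.29, limma adjusted p = 0.216), although its second probe set gave 0.08 and the median over probe sets -0.60. Coq9 was 4689 and 3792 untreated and 1755 to 3221 after ligation (mean change -0.89, limma adjusted p = 0.186). Of 19 genes on the glycolysis list, which also holds the glycogen synthase gene Gys1, 7 were lower on all 6 arrays. Among them were Gys1 (-0.76), Ldhb (-0.74) and Eno3 (-0.57). Another 2 were higher, with Pfkp (0.61) among these. The counts are 36.8% and 10.5% of the list, against 11.4% and 10.2% of all genes.

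**Figure D5:**
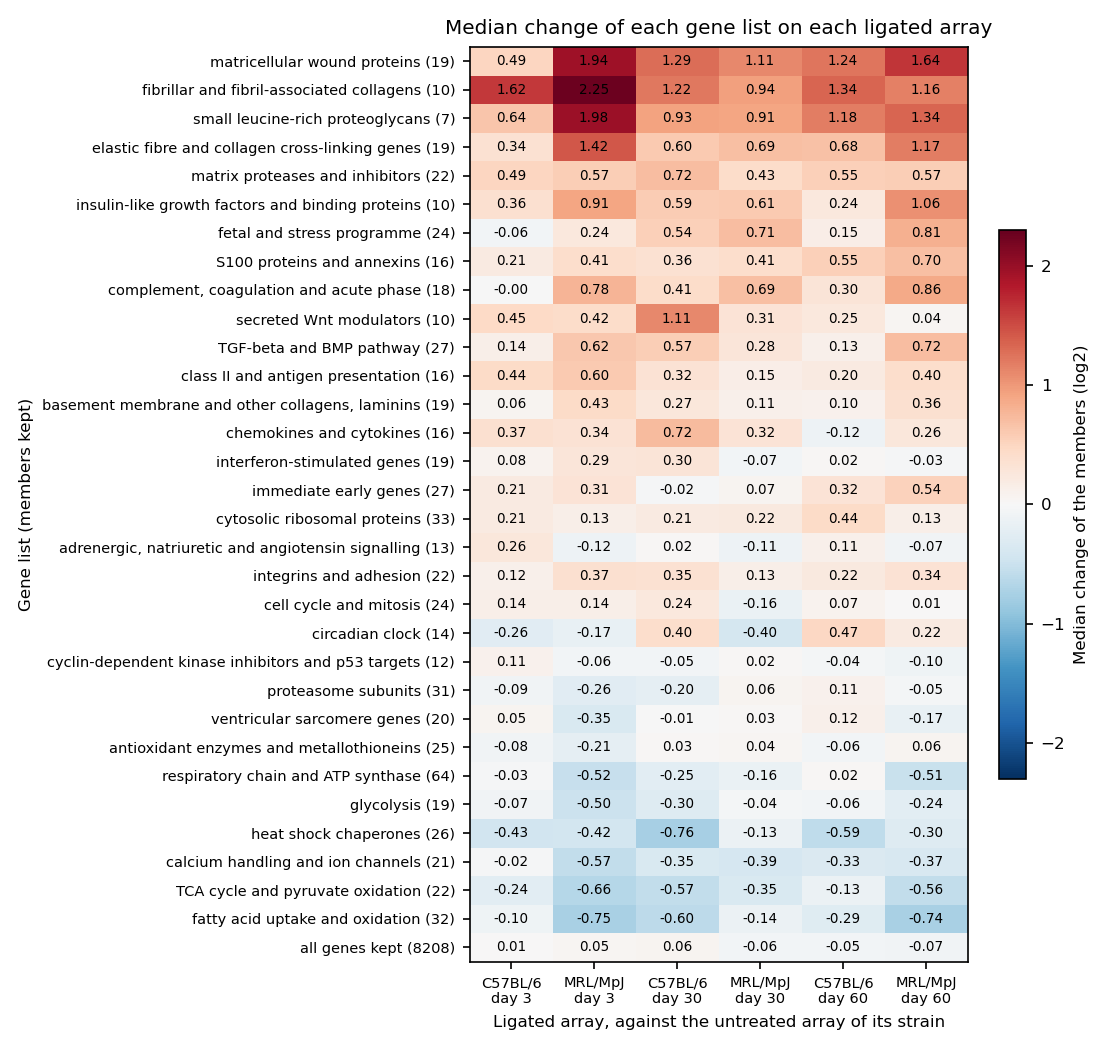
Median change (log2) of the members of 31 gene lists and of all 8208 genes on each of the 6 ligated arrays, with red above 0 and blue below; the number of members kept is in brackets. Matrix lists have medians above 0 on all 6 arrays, and the fatty acid, tricarboxylic acid cycle, glycolysis, calcium and heat shock lists have medians below 0 on all 6.

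Of 21 calcium handling and ion channel genes, 7 (33.3%) were lower on all 6 arrays and 0 higher, with a median of -0.40. Over all genes 11.4% were lower and 10.2% higher. Trdn, triadin of the calcium release complex, was 1571 and 1554 untreated and 576 to 1248 after ligation (mean change -0.74, limma adjusted p = 0.409). Ryr2, the calcium release channel itself, had a mean change of -0.56 (0.446), with its C57BL/6 day 3 signal of 2622 close to 2714 untreated. Kcnip2, a subunit of the transient outward potassium channel, had -0.63 (0.528). Other genes with the most negative changes nearest 0 were Atg10, an enzyme of autophagosome formation (-1.16), Ubr3, a ubiquitin ligase (-1.12), Rpl3l, a striated muscle form of a ribosomal protein (-1.06), Pkia, an inhibitor of protein kinase A (-1.04), 2310061I04Rik (-0.98), Chpt1, a choline phosphotransferase (-0.93), Chd7, a chromatin remodeller (-0.88), Akap1, an anchor of protein kinase A on mitochondria (-0.86), and Kif1b, a kinesin motor (-0.85), given as mean changes. Their limma adjusted p lay between 0.0923 for Chd7 and 0.318 for Pkia, so none passed. Chd7 reached the signal limit on untreated arrays alone, so its p is a description and no support. With the median over probe sets the mean change was -0.25 for Kif1b, which has 6 other probe sets, and -0.42 for Chpt1, which has 3. Pkia alone among them overlapped between groups, because its untreated MRL/MpJ signal of 491 lay below the ligated C57BL/6 signals of 699 and 781.

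Growth factor lists leaned upward, where 10.2% of all genes were higher on all 6 arrays and 11.4% lower. Of 27 TGF-beta and BMP pathway genes, 11 were higher on all 6 arrays and 1 lower; the ligand genes Tgfb3 and Tgfb2 had mean changes of 1.28 (limma adjusted p = 0.216) and 1.0 (0.233), and Ltbp2, a latent TGF-beta binding protein, 2.04 (0.137). Of 10 insulin-like growth factor genes, 5 were higher and 1 lower, with Igfbp6 at 1.33 (0.0861) and Igfbp4 at 1.0 (0.0637). S100 and annexin genes were higher on all 6 arrays in 6 of 16 members, S100a6 by 1.14 and S100a4 by 1.10. Cytosolic ribosomal protein genes were higher on all 6 arrays in 16 of 33, but by a median of 0.20. Circadian clock genes, which follow the time of day of sampling, had 0 of 14 members shifted one way on all 6 arrays, and the list median moved from -0.40 on MRL/MpJ day 30 to 0.47 on C57BL/6 day 60.

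The course over time differed among the 33 genes higher on all 6 arrays. On average over the strains, 23 were higher on day 60 than on day 3 and 10 lower, where 42.6% of all genes were higher. The largest drops from day 3 to day 60 were those of Col1a1 (-1.36, unadjusted p = 0.00394 in limma), Tnc (-1.05, 0.0184), Col3a1 (-0.97, 0.00621), Col1a2 (-0.95, 0.0176) and Anpep (-0.67, 0.0259). The largest gains were Comp (2.01, 0.00863), Ecrg4 (1.21, 0.0762), Dkk3 (1.12, 0.0113) and Myh7 (0.89, 0.195). For Hspa1b, lower on all arrays, day 60 was 0.82 above day 3 (0.0402). After adjustment 0 genes (0%) passed for day 60 against day 3, where 531 had an unadjusted p under 0.05, 174 higher and 357 lower on day 60, and the smallest adjusted p was 0.266. In C57BL/6 the highest change fell on day 3 for 10 of the 33, on day 30 for 10 and on day 60 for 13. In MRL/MpJ it fell on day 3 for 20, on day 30 for 3 and on day 60 for 10; this difference between the strains was not tested.

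The change after ligation was larger in MRL/MpJ for 24 of the 33 genes and smaller for 9, where 48.1% of all genes had a larger change in MRL/MpJ. In the limma test of the strain by ligation term 0 genes (0%) passed, with 144 at an unadjusted p under 0.05, 70 with a larger and 74 with a smaller change in MRL/MpJ, and a smallest adjusted p of 1. By limma's unadjusted p the leading genes were Ccdc43 (0.00142), Abca2 (0.00165), Glb1l (0.00218), Ms4a6d (0.00249) and S100a9 (0.00343), each with an adjusted p of 1. All 5 were dim, with signals up to 325. S100a9, a calcium-binding protein of neutrophils, was 129.5 and 126.3 untreated, 205 to 252 after ligation in C57BL/6 and 19.0 to 56.6 in MRL/MpJ. Ms4a6d, expressed by macrophages, was 89.6 in untreated C57BL/6 and 52.3 to 86.1 after ligation, against 22.8 and 114.8 to 193.9 in MRL/MpJ. Of the 33 genes, Postn had the largest difference between the strains' changes, 1.73 more in MRL/MpJ (unadjusted p = 0.0475, adjusted p = 1).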

How the data were processed

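Total RNA of left ventricle was measured on 8 Affymetrix arrays, 1 per strain and time point. The deposited values are linear signal intensity from MAS5, named in the submitters' processing notes, and their trimmed means of 247 to 248 show a common scaling by the authors; the arrays' number limits the precision. Of 22626 probe sets, 20380 had 1 gene symbol in the platform annotation, 691 several and 1555 none. Probe sets at or above 121, the median of all values, on at least 2 arrays were kept, and each gene took the one with the highest mean. Values were analysed as log2(signal + 28.6), the offset being the 20th percentile of all values. limma 3.58.1 in R 4.3.3 tested ligation with strain as covariate, the strain by ligation term, and day 60 against day 3 with strain and time point, with Benjamini-Hochberg adjustment over 8208 genes; genes with an adjusted p below 0.05 were called. The spread comes from different days and strains, so p-values do not measure the spread between animals. The procedure was tested on simulated data.

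Members and the 48 gene lists (31 of processes, 17 of cell types) were chosen with earlier results of these data known. Named were the 15 genes with the largest and the 15 with the most negative change nearest 0, the 5 with the smallest p in each test and direction, up to 4 members per list with the largest mean change and members that moved apart, the 5 with the largest difference between day 60 and day 3 each way, and every gene called or at the 2-fold limit. Further list members were named after their values were seen: Timp4, Fhl2, Rcan1, Dnajb1, Bag3, Hspe1, Stip1, Hspd1, Hspb8, Hspa2, Sln, Myl7 and Plin4. Alternatives were other offsets, filters, quantile normalization, the median over probe sets, an intensity trend, other model terms and leaving out each array.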

Additional observations from a re-analysis of the deposited data

Results flagged for a closer look

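Probe sets with no single gene symbol in the platform annotation were outside the comparisons above, and 673 with no symbol and 424 with several symbols reached the filter on dim signals. Of those without a symbol, 4 were at least 2-fold higher on all 6 ligated arrays and 0 lower, and of those with several symbols 0 were. Their changes nearest 0 were 2.04, 1.73, 1.27 and 1.18 on the log2 scale, above the untreated arrays in both strains. They stand here as signals in data that were not used, with no gene name and no test.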

How the results depend on the processing

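The count of 24 genes that rose after ligation (limma, adjusted p under 0.05) depended most on the arrays and the filter. Leaving out 1 array gave 0 to 50 genes, with 0 without either untreated array or either day 60 array and 50 without the C57BL/6 day 3 array. It was 1 of 12393 genes with no filter, 56 with a filter on the mean signal, 52 with a larger offset of 84.8 and 91 with an intensity trend in the variance. It was 17 with an offset of 1, 19 after quantile normalization, 30 with the median over probe sets, 16 with strain and time point as factors and 24 with no strain term. Over all alternatives the 24 genes still passed in 216 of 406 cases, and 0 of 50 genes followed changed direction. The 33 genes 2-fold higher on all 6 arrays were 52 with an offset of 1 and 17 with the larger offset, and 37 to 128 when 1 array was left out. The 2 genes 2-fold lower were 1 with the larger offset and 2 to 15 with 1 array left out, where fewer arrays had to meet the limit. For the same reason 946 to 1964 genes were higher, and 1048 to 2295 genes lower, on all remaining ligated arrays. The strain by ligation term and day 60 against day 3 called 0 genes in each alternative run. After quantile normalization 1 of 48 list medians changed sign, that of the skeletal muscle markers, from 0.17 to -0.02. Where an alternative changed a count, the cause was not tested beyond the numbers of arrays and genes given. No paired analysis was possible because the labels give no replicate numbers and each strain and time point has 1 array; strain was a term of the main model, and time point was added in the fit with both as factors. Signals near the offset limit what can be seen of dim genes.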

Other observations

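A few markers of fat cells (Adipoq and Scd1, 2 of 8 kept) and of antibody-producing cells (Jchain and Ighm, 2 of 6 kept) were higher on all 6 ligated arrays. Adipoq, the adipocyte hormone adiponectin, had a signal of 10.5 in the untreated C57BL/6 heart and 18.3 in the MRL/MpJ one. It was 63.5, 49.2 and 347 on days 3, 30 and 60 in C57BL/6 and 63.6, 361 and 972 in MRL/MpJ, so that the day 60 hearts were the highest of each strain. Its mean change was 2.32 (limma adjusted p = 0.371), and day 60 exceeded day 3 by 2.74 (unadjusted p = 0.000924, adjusted p = 0.446). Scd1, a fatty acid desaturase abundant in fat, was 312 and 335 untreated, 456 and 436 on day 3, 919 and 567 on day 30, and 1708 and 2178 on day 60 in C57BL/6 and MRL/MpJ. Day 60 exceeded day 3 by 2.05 for Scd1 (SE 0.29, unadjusted p = 0.000138, limma adjusted p = 0.266). The summed signal of 12 adipocyte markers was 7681 to 9375 untreated and 7229 to 15160 ligated, lowest on MRL/MpJ day 3, and Plin4 was 2051 in untreated MRL/MpJ and 1254 on its day 60 array, with 4 of the 12 under a signal of 121 on every array; the part of fat tissue in these samples was not tested.

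Jchain, the joining chain of secreted IgM and IgA, was 48.0 and 41.5 untreated, 149.7, 133.6 and 629 on days 3, 30 and 60 in C57BL/6, and 100.1, 49.6 and 569 in MRL/MpJ. Day 60 exceeded day 3 by 2.05 (SE 0.29, unadjusted p = 0.000139, limma adjusted p = 0.266). Ighm, the IgM heavy chain, was 177.7 and 190.7 untreated and reached 4997 (C57BL/6) and 996 (MRL/MpJ) on day 60, and its mean change was 1.94 (limma adjusted p = 0.441). The other 4 genes kept of the B cell and plasma cell list were not higher on all 6 arrays, and the list median was 0.24. Among endothelial genes, Flt1 and Cdh5 were lower on all 6 arrays (mean changes -0.80 and -0.61, limma adjusted p = 0.327 and 0.414), while Plvap was higher (0.98, 0.442).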
